A study of Homo sapiens with 10 samples.

Results

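The cytosolic ribosomal proteins are the protein building blocks of the ribosomes that translate nuclear genes. Probes were taken by name, as those annotated with RPSA, RPLP0, RPLP1, RPLP2 or with RPL or RPS followed by a number. S6 kinases (RPS6K names), pseudogene names, paralogues with the suffix L and the binding protein RPS19BP1 were left out. This gave 69 genes with 73 probes, 43 genes (47 probes) of the large subunit and 26 genes (26 probes) of the small subunit, out of 16352 named genes and 24105 probes on the array. A probe was tested if its detection score reached 0.99 on at least 1 array, which 71 ribosomal protein probes of 67 genes did, 46 probes of the large and 25 of the small subunit, among 14018 probes (58.2%) of the whole array. RPLP0, the stalk base, and RPSA were not analysed here.

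The RNA came from MDA-MB-435, an established line of human melanoma, and was read on 10 bead arrays (Illumina Human-8 V1), 2 for each of 5 groups. The groups were untreated cells, cells transduced with integrin beta-4 (ITGB4), and cells given hepatocyte growth factor (HGF), the ligand of the MET receptor, for 1 h, 6 h or 24 h. All groups were grown under standard conditions, and the labels give neither the dose of HGF nor the vector of the transduction. The submitters call the samples of a group biological duplicates, and the study set each treated group against the untreated reference. All 4 comparisons with untreated cells thus share the same 2 arrays. In RNA of a whole culture, fewer cells of a kind and less RNA per cell cannot be told apart.

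Each ribosome pairs a small subunit, which holds the messenger RNA and reads its codons, with a large subunit, which joins amino acids and carries the exit tunnel of the new chain. Most of the proteins are needed in equal numbers, and their messenger RNAs are among the most abundant of a growing cell. Most of these transcripts begin with a C and a run of pyrimidines, the 5′ terminal oligopyrimidine (TOP) tract, through which growth factor signals that pass by mTORC1 and LARP1 are known to set their translation, often with little change of the messenger level.

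The tract was looked for in the RefSeq promoter table (GRCh38.p14), which held 59 of the 69 genes. A gene was counted if at least 1 of its listed transcripts began with C followed directly by 4 or more bases that were C or T, read on the strand of the gene at the start base alone, so that no other strand and no overlap with another motif comes in. This held for 44 of 59 ribosomal protein genes (74.6%), 27 of 36 of the large subunit (75%) and 17 of 23 of the small subunit (73.9%), against 1404 of 27305 genes of the table (5.14%) and 667 of 8728 genes with a tested probe (7.64%). The other TOP genes of a fixed list held it in 7 of 8 cases, ribosome biogenesis factors in 5 of 37 and mTORC1 pathway genes in 0 of 12. A match describes these letters only.

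The 30 bases around the start are given for the genes that the results turn on, RPL34 and RPL17, whose probes differed between HGF times, RPL13A and RPL14, and RPS6 and RPS10, the steadiest of all after the arrays were normalised. Each run reads 5′ to 3′ on the strand of the gene, with 15 bases before the start and 15 from it, and capitals mark the tract where it is met. The windows are chr4:108620561-108620590 on the plus strand for RPL34, chr18:49492451-49492480 on the minus strand for RPL17, chr19:49487593-49487622 on the plus strand for RPL13A, chr3:40457324-40457353 on the plus strand for RPL14, chr9:19380222-19380251 on the minus strand for RPS6 and chr6:34426055-34426084 on the minus strand for RPS10.
RPL34: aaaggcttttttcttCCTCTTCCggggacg
RPL17: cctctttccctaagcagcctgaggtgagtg
RPL13A: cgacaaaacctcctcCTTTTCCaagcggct
RPL14: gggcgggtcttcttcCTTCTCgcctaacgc
RPS6: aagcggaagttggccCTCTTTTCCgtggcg
RPS10: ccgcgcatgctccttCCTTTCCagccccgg
The listed RPL17 transcript does not begin with the tract, and the other 5 do. RPL34 has a further listed start without it.

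Many ribosomal protein probes gave high signals. Of 73 probes, 63 had a mean scanner signal over 1000 and 29 over 10000 arbitrary units, and they made up 30 of the 100 and 20 of the 50 brightest probes. The lowest signal that counted as detected had a median of 91.2 over the arrays. On the scanner scale the probe of RPL41, the smallest ribosomal protein, read 23086.7 to 28122.1. RPL10, which joins the large subunit late, read 51.0 to 67.5 and was detected on 0 of 10 arrays, and RPS4Y1 was also detected on 0. RPL28 was detected on 1 array (59.7 to 95.8), and the dimmer of the RPL36 probes on 6 (71.0 to 142.2). The remaining 69 probes were detected on all 10 arrays. These signals do not rank the genes, since a probe's brightness also depends on its own sequence, and ribosomal protein genes have many near-identical processed copies, so a probe may read RNA of more than 1 gene.

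Before the groups are compared, a few facts of the arrays bear on the members. In the transduced cells the ITGB4 probe gave 6528.1 and 4700.9, and elsewhere 51.1 to 68.1. Of 8 measured melanocyte markers, 7 were detected on all 10 arrays, while the epithelial CDH1, EPCAM and KRT19, the fibroblast collagens COL1A1, COL1A2 and COL3A1 with PDGFRB, and the immune CD3E and CD14 were detected on none. KRT18, DCN and LUM were detected on all 10, KRT8 on 9 and PTPRC on 5. On replicate 1 of the untreated and of each HGF group the lower quartile of the detection score was 0.00814 to 0.0225, against 0.249 to 0.388 on the other 6 arrays, and where it matters a difference is also given from the low-score arrays alone and from the high-score arrays alone. Detected probes numbered 10226 to 11899 an array, and the median probe rested on 26 to 32 beads.

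On the quantile normalised scale the ribosomal proteins stayed near their own mean on every array. The median deviation of the large subunit probes from their own mean lay between -0.04 and 0.07 (log2) on the 10 arrays, and that of the small subunit probes between -0.07 and 0.12. HGF 1 h replicate 1 was the highest array for both subunits, with 32 of 46 large and 22 of 25 small subunit probes above their own mean. Its partner, HGF 1 h replicate 2, had 22 of 46 and 12 of 25 above it. The lowest and the highest array differed by 1.06-fold to 1.91-fold, depending on the probe.

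**Figure D1:**
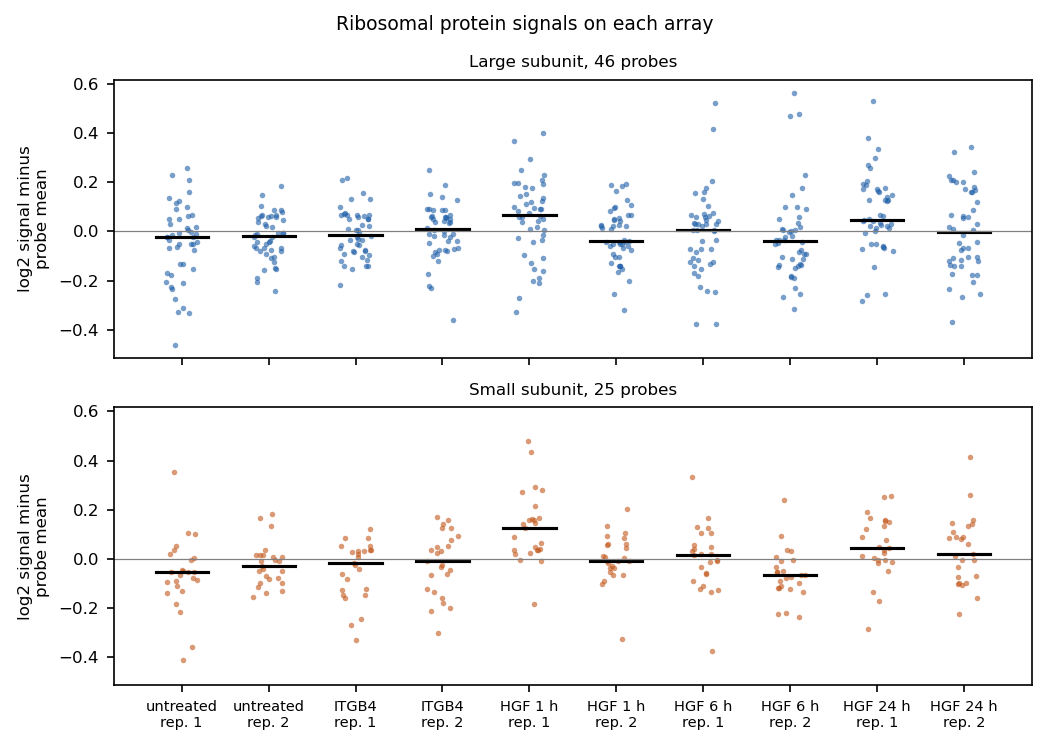
Quantile normalised log2 signal of each ribosomal protein probe minus that probe's mean over the 10 arrays (vertical axis, log2), by array (horizontal axis), with 46 large subunit probes above and 25 small subunit probes below. Points are probes and black lines are medians, which lie between -0.07 and 0.12, and HGF 1 h replicate 1 stands highest in both panels.

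On the quantile normalised scale the steadiest member was RPS6, the small subunit protein that S6 kinases phosphorylate downstream of growth factors. Its signal was 8492.8 on both untreated arrays, 8995.1 and 9106.0 with ITGB4, 8995.1 and 8727.4 after 1 h of HGF, 8727.4 and 8588.2 after 6 h, and 8995.1 and 8762.5 after 24 h. The highest and lowest arrays differed by 1.07-fold, and the residual SD was 0.02 (log2). RPS10, which lies near the entry of the messenger channel, ran from 14369.6 to 15195.0, a 1.06-fold range with a residual SD of 0.03. Before normalisation the ranges were wider, 7914.3 to 9651.1 for RPS6 and 13448.9 to 16626.0 for RPS10 on the scanner scale. In the large subunit the smallest residual SD was 0.05, for RPL10A, part of the mobile stalk at the exit site, at 5929.9 to 7315.8, and equally for RPL4, which lines the exit tunnel, at 11047.1 to 13176.7, and for RPL24. The largest was 0.26, for RPS9 of the small subunit, at 3662.3 to 6336.1, and for the dim RPL36 probe of the large subunit.

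The median residual SD of the 71 probes was 0.12, against 0.18 over all tested probes. Among probes with a mean normalised signal over 1000 it was 0.11 for 63 ribosomal protein probes and 0.17 for 1771 others. Both comparisons moved with the scaling of the arrays, in alternatives added after seeing the data. With each array scaled to a common median, the median residual SD over 1000 was 0.21 for ribosomal protein probes and 0.22 for others. Without that limit on the signal it was 0.21 and 0.20, so the order reversed. With the deposited values after rank-invariant normalisation it was 0.14 and 0.18 over 1000, and 0.14 and 0.28 without the limit. Deposited values under 16 were set to 16, and the array medians over all probes were 11.6 to 22.7, so dim probes lay at or near that floor. The deposited values of ITGB4 replicate 2 were no linear function of its scanner values (Spearman 0.968). What either does to the spread was not tested. What sets the spread was not tested.

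Transduction with ITGB4 was compared with untreated cells to ask whether expression differs in cells given the integrin chain. No group was transduced with an empty vector, so the chain and the transduction itself cannot be told apart. Both ITGB4 arrays were high-score arrays, while untreated replicate 1 was a low-score array. Of 71 ribosomal protein probes, 0 were called by limma at an adjusted p under 0.05, against 0.00713% of all probes, which is the ITGB4 probe alone. At an unadjusted p under 0.05 limma had 0 members, against 0.835% of all probes, and the ordinary variance 4 members, against 1.66%. The median difference was 0.03 for the large and 0.05 for the small subunit, beside 0 over all probes, and single probes lay between -0.27 and 0.26. The 95% interval lay within 1 on the log2 scale (2-fold) for 71 of 71 members and for 99.1% of all probes. It lay within 0.5 for 58 of 71 members here, and for 43, 51 and 43 after 1 h, 6 h and 24 h of HGF. Changes smaller than 2-fold were thus less well bounded. The counts within 0.5 describe the width of the intervals only.

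RPL24, a large subunit protein at the contact with the small subunit, had the most positive difference in the ITGB4 cells. Its signal was 13035.3 and 13976.3 untreated, and 15677.8 and 16722.5 with ITGB4. Both ITGB4 arrays lay above both untreated arrays, and the difference of 0.26 ± 0.15 (log2, SE, n = 2 arrays per group) did not pass (limma adjusted p = 1). The isoform probe of RPL13 (0.23), RPS19 (0.24) and RPS4X (0.19), the X-linked form of its protein, followed on the positive side. RPS19 read 10347.1 and 13691.0 untreated and 14082.6 on both ITGB4 arrays, and untreated replicate 1 was its lowest array of all. On the negative side stood RPS18 (-0.27) and RPS27 (-0.22) of the small subunit, and RPL23 (-0.24) and RPL4 (-0.17) of the large. RPS18, a common reference gene, read 19846.7 and 14082.6 untreated and 13880.0 on both ITGB4 arrays, so its difference was set by untreated replicate 1, and against the high-score untreated array it was -0.02. The study's own Mulcom t, which uses the ordinary pooled variance, was taken here without its optional fold-change threshold. It passed the two-sided critical value of Dunnett (3.48, not adjusted over probes) for RPL24, RPS4X and RPS6, all higher, where 0.357% of all probes passed it as higher. The study instead tuned t and that threshold together by a false discovery rate from permutations. It added the threshold to avoid false positives from very low spread within groups.

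After 1 h of HGF, 0 of 71 ribosomal protein probes were called, and 0% of all probes. At an unadjusted p under 0.05 limma had 3 members (13.5% of all probes) and the ordinary variance 6 (10.3%). The median difference was 0.08 for each subunit beside 0.04 over all probes, and the 95% interval lay within 1 for 71 of 71 members (93.8% of all probes). The small subunit was above 0 in 20 of 25 probes (80%) and the large in 28 of 46 (60.9%), against 57% of all probes. On HGF 1 h replicate 1, 22 of 25 small subunit probes lay above their own mean, and on replicate 2 12 of 25. Leaving out HGF 1 h replicate 1 gave a large subunit median of 0.02. Small subunit medians ran from 0.04 to 0.15 as each array was left out, with 0.15 without HGF 1 h replicate 2.

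The most positive small subunit probes at 1 h were RPS15 (0.40 ± 0.19, SE) and RPS16 (0.39 ± 0.17), with a limma adjusted p = 0.39 and 0.33, both proteins of the subunit head. RPS16 read 3330.8 and 3226.4 untreated and 4921.0 and 3744.9 at 1 h, without overlap, and the difference was 0.56 on low-score arrays alone and 0.22 on high-score arrays alone. In the large subunit the isoform probe of RPL8, a protein near the peptidyl transferase centre, stood at 0.39 and the RPL13 probe for all isoforms at 0.35. RPL7 (-0.38) and RPL11 (-0.33) were the most negative, and RPS24 (-0.12) and RPS14 (-0.04) in the small subunit. RPL11, which can bind and inhibit MDM2 when ribosome assembly fails, read 18857.0 and 18684.2 untreated and 14819.7 and 15049.4 at 1 h. Both treated arrays lay below both untreated arrays, the difference was -0.33 ± 0.15 (SE, limma adjusted p = 0.37), and RPL11 alone passed the Mulcom t (1.61% of all probes passed it as lower). RPL5, its partner in that complex, differed by -0.10 (interval -0.42 to 0.22).

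After 6 h of HGF, 0 of 71 ribosomal protein probes were called, while 267 probes (1.9% of all probes) were. At an unadjusted p under 0.05 limma had 4 members (16% of all probes) and the ordinary variance 7 (15.3%). The median difference was -0.02 for the large and 0.03 for the small subunit, beside 0.01 over all probes. The 95% interval lay within 1 for 69 of 71 members (93.6% of all probes), and the exceptions were isoform probes of RPL34 and RPL13.

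**Figure D2:**
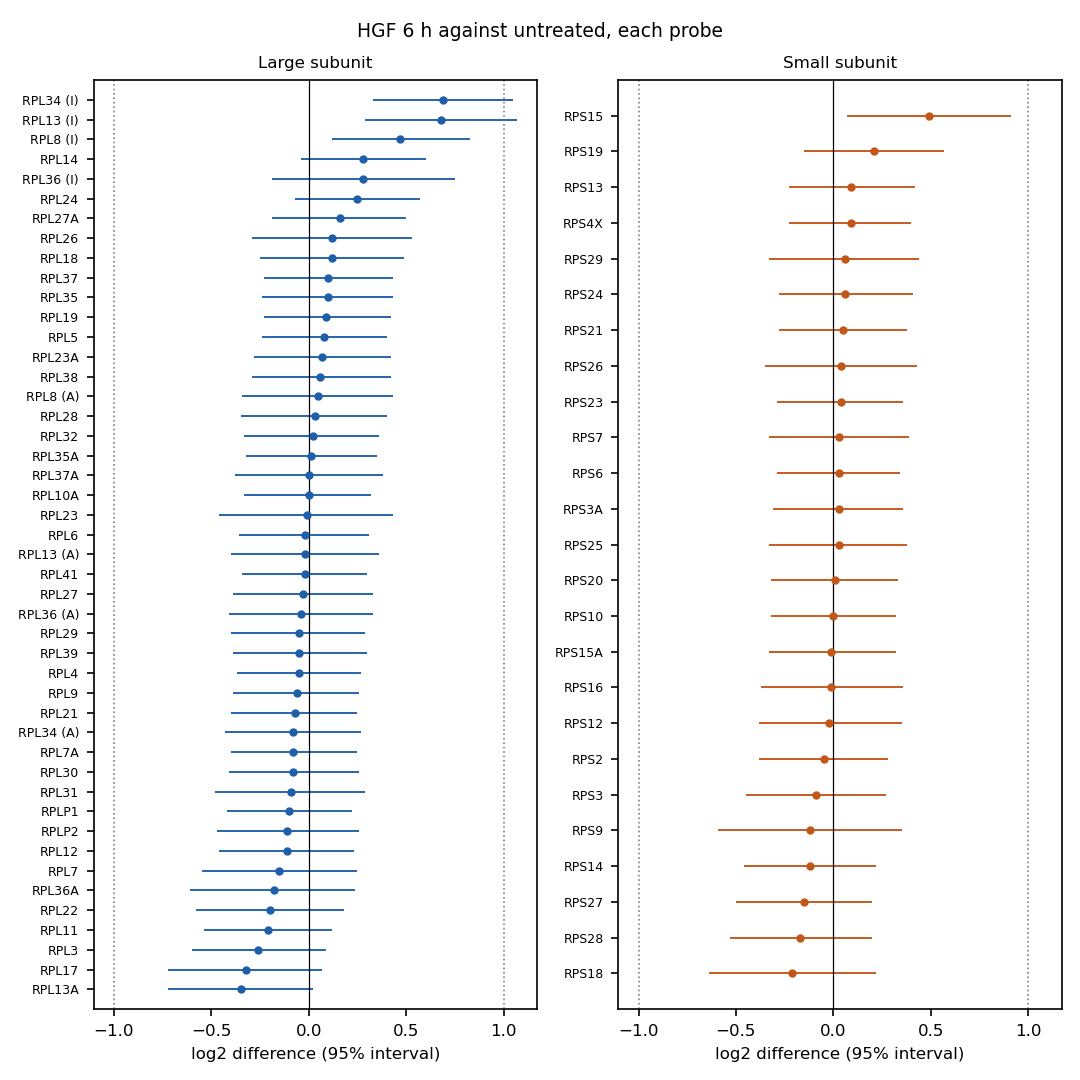
Log2 difference between HGF 6 h and untreated cells for every tested ribosomal protein probe (points) with its 95% interval from limma (lines), large subunit at left and small subunit at right, sorted by size. Dotted lines mark 1 and -1, letters in brackets tell probes of a gene apart (A for all isoforms, I for one), and the isoform probes of RPL34 (0.69) and RPL13 (0.68) stand at the top while most points lie close to 0.

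Some genes have a probe marked in its name for a single isoform and another marked for all isoforms. The isoforms that these probes read were not checked, since no probe sequences were used here. The RPL34 probe marked for a single isoform had the largest difference of all members at 6 h. It read 403.0 and 368.9 in untreated cells, 432.2 and 331.5 with ITGB4, 440.2 and 464.6 after 1 h of HGF, 611.5 and 629.1 after 6 h, and 349.8 and 329.3 after 24 h. Both 6 h arrays lay above every other array. The difference from untreated was 0.69 ± 0.17 (SE, n = 2 arrays per group), 0.60 on low-score arrays alone and 0.77 on high-score arrays alone, with a limma adjusted p = 0.055. It was called with normexp background correction, with the deposited value table and with the filter that requires detection on all 10 arrays. A block of the replicate, or of the array background (low-score or high-score arrays), also gave the call. It was not called with median scaling, no detection filter, the ordinary variance or the compared groups alone. Nor was it called when an untreated, ITGB4, HGF 1 h or HGF 6 h array was left out.

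The RPL34 probe for all isoforms gave other values. That probe read 174.6 and 206.0 untreated, 165.9 and 193.8 at 6 h, and 174.8 and 157.1 at 24 h. Its groups overlapped, with a difference at 6 h of -0.08 (interval -0.43 to 0.27) where the other probe had 0.69 (interval 0.33 to 1.05). RPL13 also has a pair of probes. Its single-isoform probe, close to the limit of detection, read 108.4 and 115.1 untreated and 175.3 and 182.1 at 6 h, a difference of 0.68 ± 0.18 (SE, limma adjusted p = 0.074). It was called with detection required on all 10 arrays and with the replicate or the array background as a block, and in no other limma setting. Its probe for all isoforms read 866.1 and 939.4 untreated and 826.4 and 957.4 at 6 h, a difference of -0.02 (interval -0.40 to 0.36). For RPL8 the isoform probe differed by 0.47 (142.2 and 182.5 untreated, 218.3 and 229.6 at 6 h, limma adjusted p = 0.16) and the probe for all isoforms by 0.05. In RPL34, RPL13 and RPL8 the single-isoform probe had the higher difference, and whether the probes differ from each other was not tested. The RPL36 probe for all isoforms differed by -0.04, and its other probe, detected on 6 arrays only, is not read here.

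**Figure D3:**
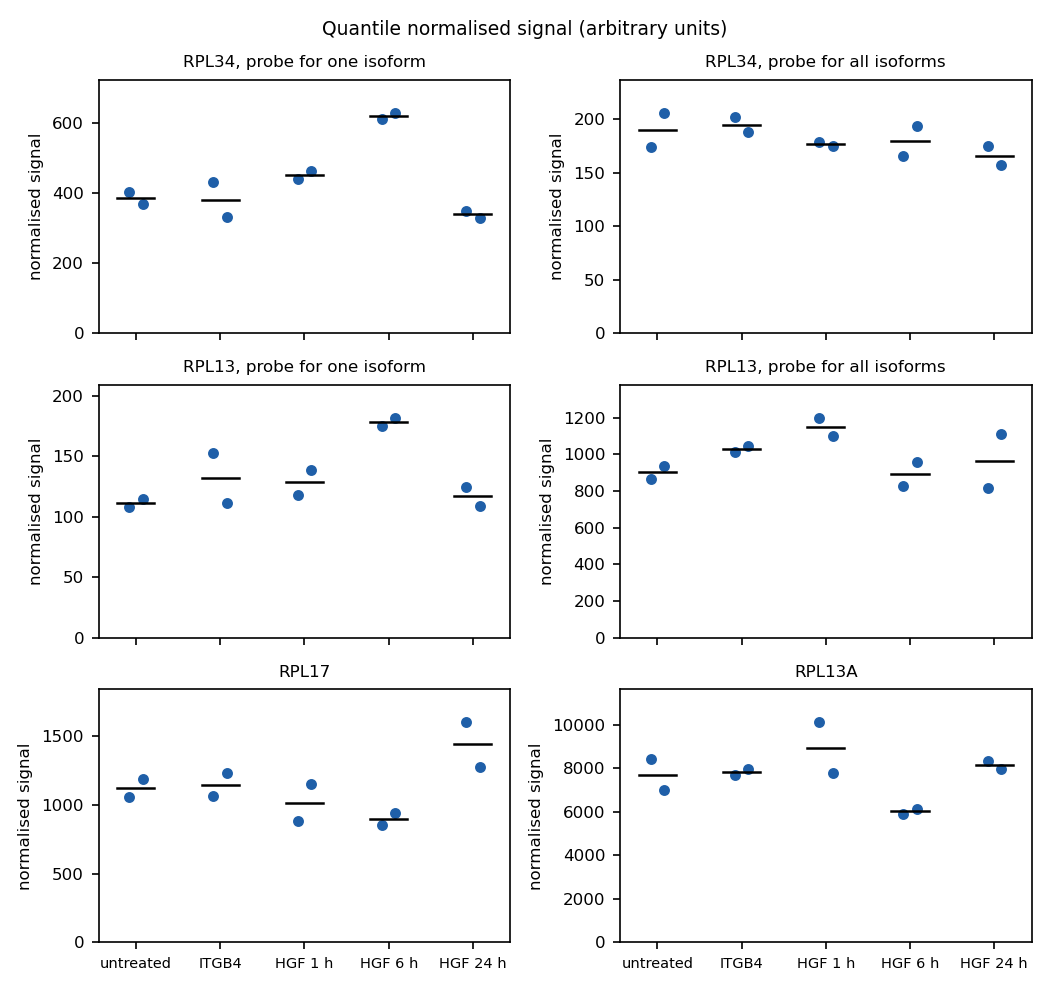
Quantile normalised signal (arbitrary units, linear axis from 0) of 6 large subunit probes by group, each point being 1 array and each line a group mean. The single-isoform probes of RPL34 and RPL13 are highest at HGF 6 h, the probes for all isoforms are not, RPL17 is highest at 24 h and RPL13A lowest at 6 h.

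Further members at 6 h had smaller differences. RPS15, a head protein near the decoding site, read 2842.9 and 3544.9 untreated and 4597.5 and 4307.7 at 6 h, a difference of 0.49 ± 0.19 (SE, limma adjusted p = 0.23). RPS19, a small subunit protein mutated in Diamond-Blackfan anaemia, stood at 0.21. Its 6 h arrays read 13465.8 and 14082.6, against 13691.0 on untreated replicate 2 and 10347.1 on untreated replicate 1, its lowest array. The most negative were RPL13A (-0.35), which also takes part in the silencing of inflammatory messages, RPL17 (-0.32), RPS18 (-0.21) and RPS28 (-0.17). RPL13A read 8402.0 and 7016.1 untreated, 10109.2 and 7784.1 at 1 h, and 5897.6 and 6138.7 at 6 h. Both 6 h arrays lay below all the others, with a difference from untreated of -0.35 (interval -0.72 to 0.02) and from 1 h of -0.56 (limma adjusted p = 0.08). The Mulcom t was passed by isoform or single probes of RPL13, RPL14, RPL24, RPL34 and RPL8, all higher, where 4.18% of all probes passed it as higher.

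After 24 h of HGF, 0 of 71 ribosomal protein probes and 0% of all probes were called. At an unadjusted p under 0.05 limma had 1 member (5.71% of all probes) and the ordinary variance 8 (5.21%). The median difference was 0.08 for the large and 0.09 for the small subunit beside 0.01 over all probes. Of the members, 51 of 71 probes (71.8%) lay above 0, against 52.8% of all probes. On the 2 untreated arrays that all these differences share, 24 and 27 of 71 members lay above their own mean. The 95% interval lay within 1 for 71 of 71 members (97.6% of all probes). RPL14 was the member at an unadjusted p under 0.05. It read 738.3 and 823.1 untreated, 893.8 and 885.6 at 1 h, 933.9 and 964.6 at 6 h, and 979.6 and 1005.9 at 24 h. All 6 HGF arrays lay above the untreated arrays, and the 24 h difference was 0.35 ± 0.15 (SE, limma adjusted p = 0.86), with RPL14 alone passing the Mulcom t (0.863% of all probes passed it as higher). RPL17 stood at 0.35, RPS16 at 0.31 and RPS19 at 0.28. At 24 h RPS19 read 14209.4 and 14618.0, against 13691.0 on untreated replicate 2 and 10347.1 on untreated replicate 1, its lowest array. On the negative side RPL34 had -0.19 and -0.18 for its 2 probes, RPS14 -0.13 and RPS18 -0.09.

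In the test of any difference from untreated (limma F test) 0 of 71 members were called, against 2.49% of all probes, and 4 members had an unadjusted p under 0.05, against 18.7% of all probes. The ordinary variance called 0 members, and 1 probe of the whole array.

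Times of HGF were compared with each other because the 3 groups form a course. Between 1 h and 6 h, 0 of 71 members were called by limma, against 4.67% of all probes, and 7 had an unadjusted p under 0.05 (20.5% of all probes). The ordinary variance called 0 members and 0 probes of the whole array, and 13 members had an unadjusted p under 0.05 with it (18.2% of all probes). Between 6 h and 24 h, 2 of 71 members (2.82%) were called against 8.31% of all probes, both in the large subunit, and 5 had an unadjusted p under 0.05 (21.3% of all probes), or 13 with the ordinary variance (19.8%). The single-isoform probe of RPL34 fell by 0.87 ± 0.17 (log2, SE, n = 2 arrays per group, limma adjusted p = 0.0073), a 1.83-fold difference, with -0.81 on low-score arrays alone and -0.93 on high-score arrays alone. This call was lost with the ordinary variance and without HGF 6 h replicate 2. The RPL34 probe for all isoforms differed by -0.11 (interval -0.46 to 0.24).

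RPL17, which lines the exit tunnel, rose between 6 h and 24 h. Its signal was 1056.8 and 1188.2 untreated, 1063.9 and 1227.2 with ITGB4, 880.4 and 1146.9 after 1 h, 850.8 and 942.7 after 6 h, and 1597.9 and 1275.9 after 24 h. The 24 h arrays were the highest of the 10. The difference was 0.67 ± 0.18 (SE, n = 2 arrays per group, limma adjusted p = 0.04), 0.91 on low-score arrays alone and 0.44 on high-score arrays alone. The call of RPL17 was lost with the value table, with no detection filter, with the ordinary variance, with the fit of the compared groups alone, and without ITGB4 replicate 1 or 2, HGF 6 h replicate 1 or 2, or HGF 24 h replicate 1. The isoform probe of RPL13 (-0.61, limma adjusted p = 0.053), RPL13A (0.44) and RPL3 (0.38), which is part of the peptidyl transferase region, also had an unadjusted p under 0.05 in this comparison.

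Several members in common use as reference genes, or of known special roles, gave the following spans. RPL19 read 10913.4 to 12524.8 over the 10 arrays, and its differences from untreated were 0.07 to 0.10 in the 4 contrasts. RPL32 read 12634.0 to 15335.8, with differences of -0.09 to 0.11. RPS18 had a residual SD of 0.22, among the largest of the small subunit, and read 13295.6 to 19846.7. RPL13A had a 1.71-fold range. Of the stalk proteins that recruit elongation factors, RPLP1 read 11347.0 to 14501.5 (differences from untreated of -0.10 to 0.13) and RPLP2 read 6603.0 to 9780.5 (-0.11 to 0.27). RPS3, which lines the entry of the messenger and also acts in DNA repair, read 6190.4 to 8132.0 (-0.12 to 0.08). RPL5 read 6874.1 to 7868.4 (-0.10 to 0.08).

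The shift of the subunits as a whole depended on how the arrays were scaled. With median scaling the large and small subunit medians against untreated were 0.22 and 0.25 at 1 h, -0.11 and -0.09 at 6 h, and 0.13 and 0.16 at 24 h, with all probes at 0.03, -0.07 and -0.01. In the value table, which the submitters background subtracted and rank-invariant normalised, they were 0.27 and 0.28 at 1 h, 0.18 and 0.21 at 6 h, and 0.25 and 0.25 at 24 h, with all probes at 0.05, 0.17 and 0.08. The direction at 6 h therefore changed with the scaling (-0.02 and 0.03 with quantile normalisation), while at 1 h and 24 h both subunits lay above 0 in all 3. These medians were described without a test.

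**Figure D4:**
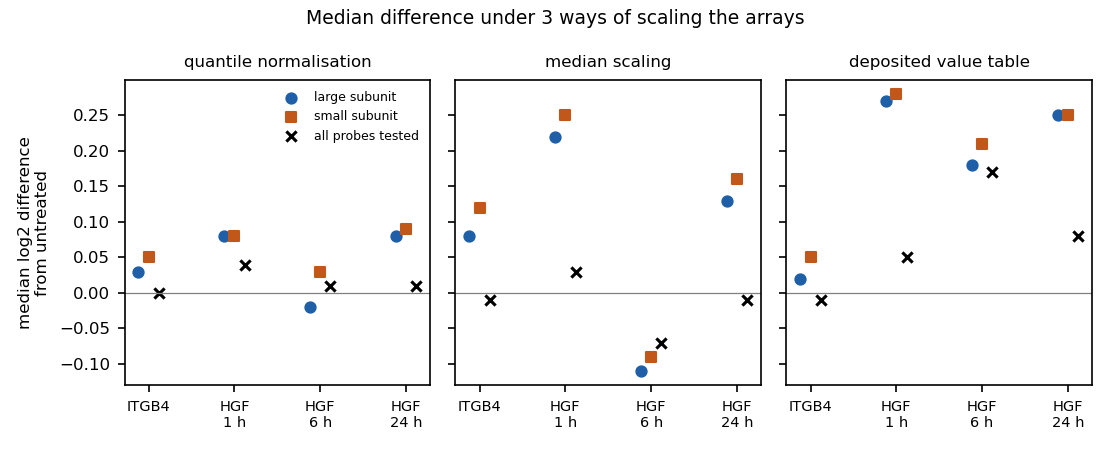
Median log2 difference from untreated of 46 large subunit probes (circles), 25 small subunit probes (squares) and all tested probes (crosses) in the ITGB4 and HGF groups, with quantile normalisation, median scaling and the deposited value table from left to right. The subunits move together in each panel, and at 6 h they lie near 0, below 0 and above 0 in turn, as does the median of all tested probes.

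The genes that build the ribosome were listed apart from its own proteins. Of 37 ribosome biogenesis factors, which process the ribosomal RNA and assemble the subunits in the nucleolus, 11 were called higher and 0 lower at 6 h against untreated (1.9% of all probes in either direction), with a median of 0.64. Between 6 h and 24 h, 24 were called lower and 0 higher (8.31% of all probes in either direction), with a median of -0.84. NOP56, a core protein of the particles that methylate ribosomal RNA, read 370.9 and 343.3 untreated, 453.3 and 422.5 at 1 h, 852.2 and 853.7 at 6 h, and 264.6 and 317.1 at 24 h. It rose by 1.26 at 6 h (limma adjusted p = 0.0077) and fell by 1.56 from 6 h to 24 h (adjusted p = 0.00071). NOP16 (1.14) and PES1 (0.99), both of large subunit assembly, also rose at 6 h. The 11 calls at 6 h against untreated became 0 with the ordinary variance and without HGF 6 h replicate 1, HGF 6 h replicate 2 or untreated replicate 2, 2 without untreated replicate 1, 3 with median scaling, and 5 with only the compared groups. The 24 calls from 6 h to 24 h became 3 with the ordinary variance and were fewer without either HGF 6 h array. In that comparison NOP56 was called in every setting run. Its call at 6 h against untreated was lost with the ordinary variance and without untreated replicate 2 or either HGF 6 h array.

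**Figure D5:**
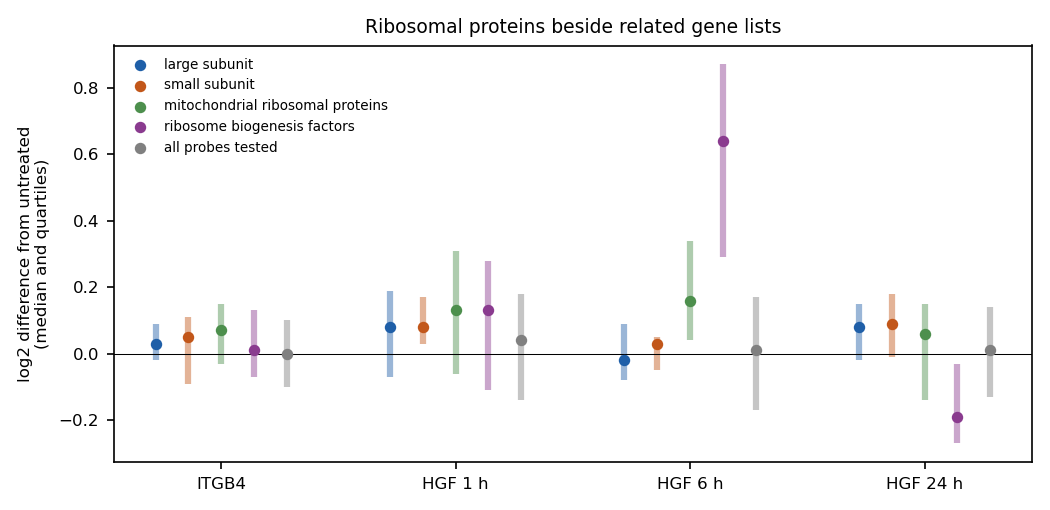
Median (points) and quartiles (bars) of the log2 difference from untreated in the 4 treated groups, for large and small subunit probes, mitochondrial ribosomal protein probes, ribosome biogenesis factors (1 probe per gene) and all tested probes. At HGF 6 h the biogenesis factors have a median of 0.64, the mitochondrial ribosomal proteins 0.16, and the subunits -0.02 and 0.03.

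Dedicated chaperones and importers of ribosomal proteins were measured for 9 of 10 listed genes. GRWD1, the chaperone of RPL3, rose by 1.11 (limma adjusted p = 0.019) and BCCIP, the chaperone of RPL23, by 0.91 (adjusted p = 0.037) at 6 h, and 0 fell (1.9% of all probes called in either direction). RPL3 and RPL23 themselves differed by -0.26 and -0.01. From 6 h to 24 h GRWD1, BCCIP and HEATR3, which brings RPL5 to the nucleus, fell (3 of 9 called, 8.31% of all probes). Among the paralogues with the suffix L, RPL7L1 rose by 0.79 at 6 h (adjusted p = 0.032), 1 of 5 measured, while RPL7 differed by -0.15. Of 14 probes with pseudogene names 1 rose at 6 h, RPL23AP82 (0.66, adjusted p = 0.045), where the RPL23A probe differed by 0.07. All 4 of these calls at 6 h were lost with the ordinary variance and without either HGF 6 h array or either untreated array, and those of BCCIP, RPL7L1 and RPL23AP82 also with median scaling and the value table. The calls of GRWD1 and BCCIP from 6 h to 24 h were lost with the ordinary variance alone, and that of HEATR3 also without either HGF 6 h array or HGF 24 h replicate 2.

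In the other lists of the translation machinery few or no genes were called. Elongation factors (7 measured) and other TOP messages (13 measured) had 0 called by limma in each of the 6 comparisons, with medians at 6 h of 0 and -0.16. In lists this short the shares of all probes, from 0% to 8.31%, amount to few calls or none. FAU, the small subunit protein outside the RPS names, read a mean of 10972.1 and differed by 0.13 at 6 h. Of 85 mitochondrial ribosomal protein probes 0 were called at 6 h against untreated, 3 were higher at 6 h than at 1 h (4.67% of all probes called), among them MRPL1 (1.04, adjusted p = 0.022), and 6 were lower at 24 h than at 6 h (8.31% of all probes called), led by MRPL20 (-0.90, adjusted p = 0.0068). These counts are close to or below the shares of all probes. In the mTORC1 and S6 kinase list (12 measured) 0 were called against untreated, but EIF4E, the cap-binding factor, rose by 1.23 from 1 h to 6 h (adjusted p = 0.0083) and fell by 1.24 from 6 h to 24 h (adjusted p = 0.0033). Its inhibitor EIF4EBP1 rose by 0.70 from 6 h to 24 h (adjusted p = 0.04). The calls of EIF4E and MRPL1 from 1 h to 6 h were lost with the ordinary variance and without HGF 1 h replicate 1 or either HGF 6 h array, that of EIF4E from 6 h to 24 h with the ordinary variance alone, and that of MRPL20 also without HGF 6 h replicate 2. That of EIF4EBP1 was lost in further settings, among them median scaling and the value table.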

How the data were processed

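MDA-MB-435 RNA had been measured on 10 Illumina Human-8 V1 arrays, 2 for each of 5 groups taken from the labels. The authors deposited 1 scanner table per array, written by BeadStudio 1.5.1.3 per the submitters' processing notes, with the mean bead intensity of each probe, neither background subtracted nor normalised. The deposited detection score is a fraction from 0 to 1, the deposited bead SD is a score that was not used, and the number of beads is given beside it. The deposited value table gives intensities after background subtraction and rank-invariant normalisation by the authors. Its column for ITGB4 replicate 2 was no linear function of the scanner table (Spearman 0.968), unlike the other 9, so it served as an alternative only.

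Of 24136 probes, 22 controls and 9 probes lacking a signal were set aside. Names came from the platform annotation, updated by Entrez number for 18688 of 18758 named probes, and 5347 probes had no name here. Intensities were quantile normalised and log2 transformed with no floor. Probes with a detection score of 0.99 or more on at least 1 array were fitted with limma 3.58.1 (R 4.3.3), 5 group means over all 10 arrays, 5 residual and 8.16 prior degrees of freedom, with two-sided tests adjusted by Benjamini-Hochberg over the 14018 probes of a contrast and called under 0.05. The p-values measure the spread between duplicates. The number of arrays limits the precision. Since 30 of the 100 brightest probes are ribosomal protein probes, quantile normalisation can absorb a shift they share.

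Members and gene lists were chosen with earlier results of these data known. Lists took each gene's brightest tested probe (mitochondrial and pseudogene names, all probes). Named were called members, the 2 most positive and 2 most negative probes per subunit and contrast with untreated cells, the smallest and largest residual SD, genes with several probes, 12 genes set by name, and up to 3 called genes per related list. Alternatives were median scaling, normexp (offset 50), the value table (values under 16 set to 16), other detection filters, blocks, ordinary variance, the Mulcom t, fewer groups and leaving out each array. The fit was tested on simulated data. Start sequences are from RefSeq (GRCh38.p14).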

Additional observations from a re-analysis of the deposited data

Results flagged for a closer look

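The isoform probe of RPL34 and the probe of RPL17, both of the large subunit, were flagged because their response to HGF differed between 6 h and 24 h in a direct test of that difference. In this test 2 of 71 members (2.82%) were called, a smaller share than the 8.31% of all probes. The single-isoform probe of RPL34 was lower at 24 h than at 6 h (-0.87 on the log2 scale, limma adjusted p = 0.0073). RPL17 was higher at 24 h than at 6 h (0.67, limma adjusted p = 0.04). The call of RPL34 was lost with the ordinary variance and without HGF 6 h replicate 2. That of RPL17 was lost in more settings, among them the value table, no detection filter and the ordinary variance. The RPL34 probe for all isoforms differed by -0.11. What sets the probes of RPL34 apart was not tested.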

How the results depend on the processing

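Counts of called members changed mainly at 6 h against untreated, from 0 to 1 with normexp or the value table, 2 with detection required on all 10 arrays, and 5 with the Mulcom t. All 5 were higher, where 4.18% of all probes passed the Mulcom t as higher. A count printed here without a share of all probes describes its setting only and is not a result about the members. Leaving out each array gave 0 to 1 there and 0 to 2 between 6 h and 24 h, and 0 to 1 in the F test. From 6 h to 24 h the 2 calls became 1 with the value table, with no detection filter and with only the compared groups, and 0 with the ordinary variance. From 1 h to 6 h median scaling called 1 (RPL13A). The F test called 1 with normexp and 1 with detection on all arrays. The Mulcom t passed 3 members for ITGB4, 1 at 1 h and 1 at 24 h. With a replicate block in a paired fit, 2 members were called at 6 h against untreated, 1 at 6 h against 1 h and 2 in the F test, and the array background block gave 2, 1 and 1. The labels do not say that replicate numbers mark a shared batch, and the deviations of same-numbered arrays correlated from -0.06 to 0.66 over probes. From 6 h to 24 h the block called 3 members in place of 2, and it moved no other count of members. Over all probes it raised the calls from 0 to 427 at 1 h, from 267 to 1089 at 6 h, from 654 to 1871 between 1 h and 6 h, from 1165 to 2245 between 6 h and 24 h, and from 349 to 2103 in the F test. With the ordinary variance the same 5 counts were 0, 0, 0, 107 and 1. Without HGF 6 h replicate 2 the 267 calls became 0, and without HGF 1 h replicate 1 the 654 became 0.

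Median scaling gave large and small subunit medians of 0.08 and 0.12 for ITGB4, 0.22 and 0.25 at 1 h, -0.11 and -0.09 at 6 h, 0.13 and 0.16 at 24 h, -0.30 and -0.34 from 1 h to 6 h, and 0.22 and 0.23 from 6 h to 24 h. The value table gave 0.27 and 0.28, 0.18 and 0.21, and 0.25 and 0.25 at 1 h, 6 h and 24 h, with all probes shifted by 0.17 at 6 h. Within the high-score arrays the large subunit stood at 0.01 (1 h) and -0.02 (24 h) and the small at -0.05 (6 h). Within the low-score arrays the large stood at -0.08 (6 h against 1 h) and 0.11 (24 h against 6 h) and the small at 0.17 (1 h). The cause of these shifts was not tested. The counts of intervals within 1 stayed within 1.5 times their value under every setting run. Leaving out each array gave large subunit medians of 0.02 to 0.11 (1 h), 0.01 to 0.11 (24 h), -0.09 to 0.04 (1 h to 6 h) and 0 to 0.13 (6 h to 24 h), and small subunit medians of 0.04 to 0.15 (1 h), -0.05 to 0.08 (6 h) and -0.14 to -0.04 (1 h to 6 h). Small differences are limited by 2 arrays per group.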
